A study of Oryza sativa with 18 samples.

Results

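The 1000 accessible chromatin regions described here are those least open in the shoot epidermis of rice, out of 128764 regions in the atlas. They were chosen by their values in 3 columns of the authors' table, the Epidermis states of axillary bud, early seedling and seedling. Each value was put on a log2(CPM + 1) scale, where CPM is the count scaled to a fixed library total, and the mean of all states of the same organ was subtracted. This difference from the organ mean is the quantity used throughout, and the members have its lowest mean over the 3 columns. Leaf Epidermis was left out of the choice, as were panicle, both root types and both seed stages.

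The atlas profiled nuclei of Oryza sativa, genotype Nipponbare, by single-cell ATAC-seq, an assay in which a transposase cuts and tags open chromatin. Tissue was fresh in all 9 organs or stages, with 2 libraries each and no treatment or mutant contrast. Besides the shoot organs named so far these were panicle, seeds at an early and a late stage, and roots of the seminal and the crown type. The authors pooled nuclei by cell state, which gave 128 columns with 1 value per region, and so there is no SD, no n and no test within an organ. A lower value in such a column cannot separate fewer open nuclei from less open chromatin per nucleus.

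The shoot epidermis is the outermost cell layer, which descends from the surface layer of the shoot meristem. It makes the cuticle and gives rise to stomata, the pores through which the leaf exchanges gas. Vascular tissue lies deep in the organ, where procambium, its stem-cell-like precursor, forms xylem for water and phloem for sugar transport. The files pair no region with a gene, and neither marker genes nor region sequences were used here, so the state names are the authors' labels and were not checked against markers.

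The members were low in shoot epidermis, though most of them kept some signal there. Their median CPM was 2.38 in bud Epidermis, 1.64 in early seedling Epidermis and 2.14 in seedling Epidermis. The median over members of their mean over all states of the organ was 8.06, 7.51 and 8.08 CPM in the same order, against 4.80, 5.03 and 4.98 over all regions of the table. A CPM below 1 was found for 95 members in bud Epidermis, 292 in early seedling Epidermis and 141 in seedling Epidermis, against 10.4%, 10.96% and 10.1% of all regions. The bud count of members is thus below the share of all regions, and the early seedling count is well above it. These values chose the members and are a description only.

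The mean difference that set the choice ran from -2.03 to -1.05 with a median of -1.16, against a median of -0.01 over the table. The last member and the first region outside were nearly equal at -1.0480 and -1.0479. The last member, on chromosome 11 from 10947026 to 10947526, reached 0.300, 0.291 and 0.687 CPM in the bud, early seedling and seedling Epidermis columns. The first region outside, on chromosome 9 from 15375086 to 15375586, had 3.39, 0.689 and 2.55. The limit is therefore a point on a continuum.

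The member with the lowest mean lies on chromosome 3 from 33795151 to 33795651. Its CPM was 2.84 in bud Epidermis, 0.923 in early seedling Epidermis and 2.42 in seedling Epidermis, while the means of the 3 organs were 12.1, 16.4 and 14.5. In leaf it was 23.9 in Epidermis, the highest of the 8 leaf states, with a leaf mean of 16.6. In panicle Epidermis_meristem it was 1.28, with a panicle mean of 2.88. Its highest value in the atlas was 45.4, in Pericycle of seminal root, the layer around the root's vascular core. This region was thus low in the Epidermis of bud, early seedling and seedling and high in that of leaf.

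The next member showed another pattern. On chromosome 4 from 28536522 to 28537022, CPM was 2.52, 0.291 and 0.495 in the 3 Epidermis columns, with organ means of 17.8, 8.26 and 10.4. Its leaf Epidermis value was 1.62 against a leaf mean of 8.01, and its panicle Epidermis_meristem value 1.98 against a panicle mean of 12.8. It peaked at 37.1 in Procambial_meristem of seedling. Here every epidermal column read, leaf included, lay far below the mean of its organ.

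The next 3 members in the ranking peaked in xylem or phloem states. The member on chromosome 6 from 30342893 to 30343393 had 2.13, 0.923 and 2.23 CPM in the 3 Epidermis columns and 32.9 in Developing_metaxylem of seminal root, a xylem state. The member on chromosome 4 from 6683046 to 6683546 had 2.18, 0.463 and 1.35, and 34.8 in Developing_phloem of seedling. The member on chromosome 8 from 27344118 to 27344618 had 3.23, 1.21 and 1.58, and 34.1 in Phloem_parenchyma of bud. Of the rest of the 10 lowest, some peaked in Developing_metaxylem of seminal root. Others peaked in Stele_initials of crown root or in unnamed states of crown root and early seedling. Over the 10 lowest members, leaf Epidermis ranged from 0.906 to 38.8 CPM, whereas panicle Epidermis_meristem ranged from 1.18 to 4.27. The authors' list calls all 10 broadly accessible.

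**Figure D1:**
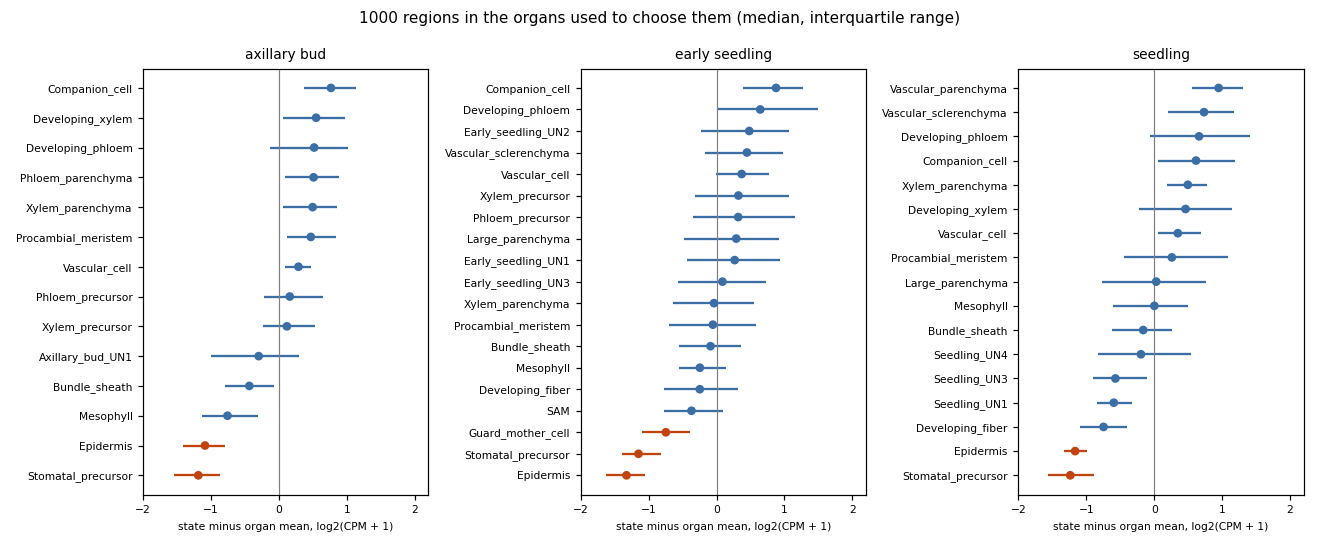
Median (point) and interquartile range (line) over the 1000 members of each state minus its organ mean, on the log2(CPM + 1) scale, in axillary bud, early seedling and seedling. Surface and stomatal-lineage states are in red and the other states in blue; Epidermis was used to choose the members, and Stomatal_precursor sits beside it at -1.19, -1.15 and -1.24.

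Within the 3 organs of the choice, states of the stomatal lineage were also low. Stomatal_precursor, the state of cells that will form stomata, had a median difference from the organ mean of -1.19 in bud, -1.15 in early seedling and -1.24 in seedling. The Epidermis medians were -1.09, -1.33 and -1.16. Stomatal_precursor rather than Epidermis was the lowest state of the organ for 498 members in bud and 399 in seedling, against 8.49% and 9.50% of all regions. Epidermis was the lowest for 424 members in early seedling, against 4.87% of all regions. Guard_mother_cell of early seedling, the state before the division that makes guard cells, had a median of -0.75. These states share the organ mean with the rule, so no test or support is drawn from them.

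Photosynthetic tissue was not where the members were most open. Mesophyll, the main photosynthetic tissue, had medians of -0.76 in bud, -0.25 in early seedling and 0.00 in seedling. Bundle_sheath, the cells around each vein, had -0.44, -0.09 and -0.16. The highest medians belonged to Vascular_parenchyma of seedling at 0.95, Companion_cell of early seedling at 0.88 and Companion_cell of bud at 0.77. Companion cells serve the sugar-conducting tubes of the phloem. Developing_fiber of seedling, by contrast, had -0.75.

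Each organ of the choice was then left out in turn, and 1000 regions were chosen on the other 2. This read the Epidermis column of an organ that the choice had not used. In axillary bud, 92.4% of the regions chosen without it lay below the bud mean (exact 95% binomial interval 90.6 to 94.0), against 49.8% of all regions. Here and below, such intervals treat regions as independent and say nothing of variation between libraries. In early seedling it was 97.1% (95.9 to 98.0) against 52%, and in seedling 99.7% (99.1 to 99.9) against 50.1%. The median difference was -0.57, -0.89 and -1.02, against -1.09, -1.33 and -1.16 for the members themselves, which that column helped to choose. Of the members, 597, 613 and 783 were also found without bud, without early seedling and without seedling.

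Depth per column is not given, so each column's count of distinct values stands in for it. It was 1721 for bud Epidermis, 237 for early seedling Epidermis, 879 for seedling Epidermis, 420 for leaf Epidermis and 1041 for panicle Epidermis_meristem, with a median of 402.5 over the atlas. Early seedling Epidermis, the shallowest of these, also had the lowest median. The part of depth in that order was not tested.

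**Figure D2:**
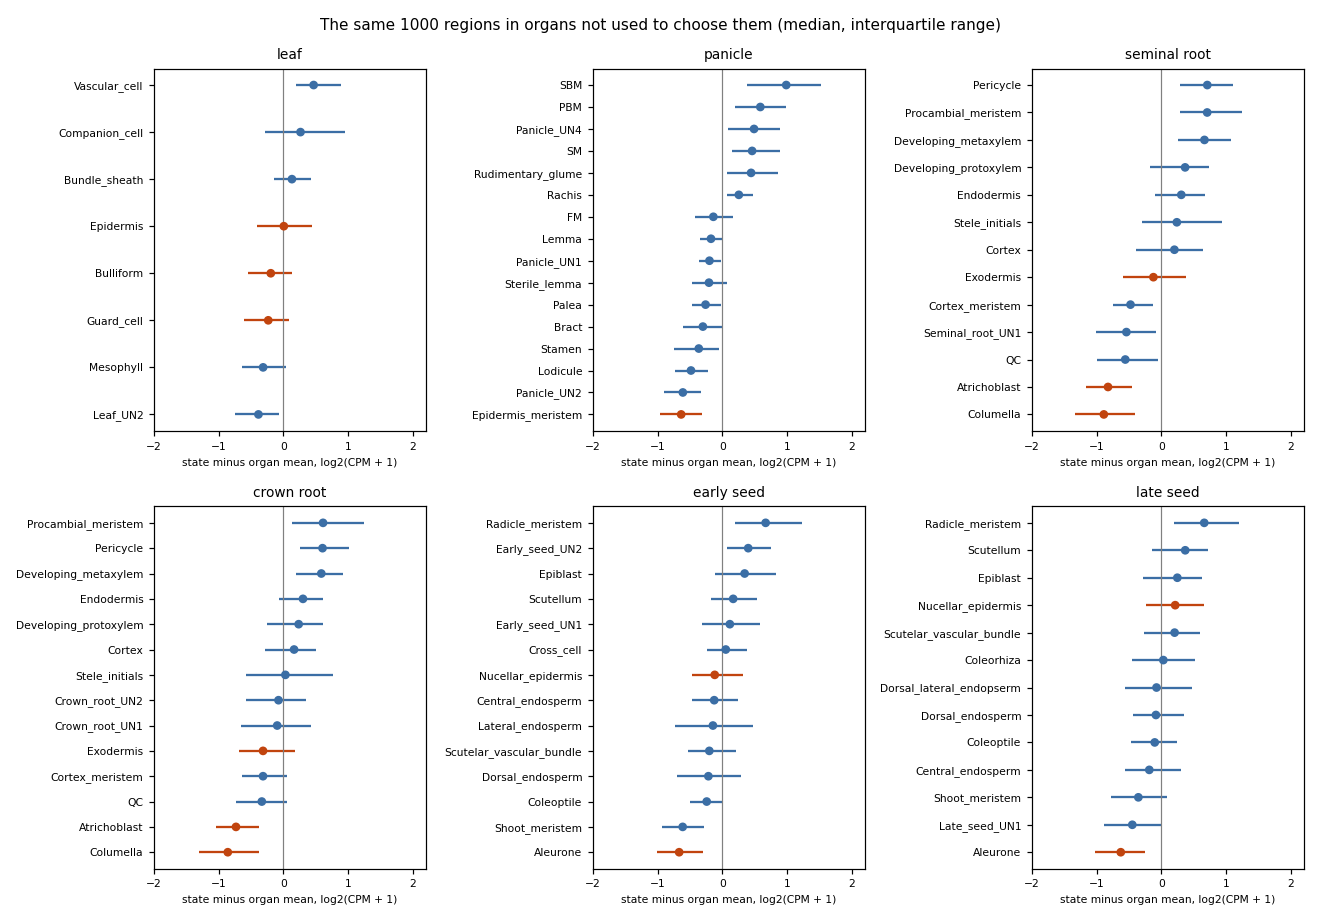
The same 1000 members in the 6 organs that the choice did not use, as median and interquartile range of each state minus its organ mean on the log2(CPM + 1) scale, with surface, stomatal and root cap states in red. Panicle Epidermis_meristem (-0.64), both root Atrichoblast states (-0.82 and -0.73) and both Aleurone states (-0.67 and -0.63) lie on the left, and leaf Epidermis lies near 0.

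In leaf, the organ set aside, the epidermis was not low in these regions. Leaf Epidermis had a median CPM of 6.36 over the members, with an interquartile range of 2.52 to 14.6. The Epidermis columns of bud, early seedling and seedling had 2.38, 1.64 and 2.14. The median difference from the leaf mean was 0.0080, and 49.5% of members lay below 0 (exact 95% interval 46.4 to 52.6), against 56.9% of all regions. Below -1 were 3.8% of members, against 0.666% of all regions and 0.708% of those with a leaf mean of at least 1 on the log2 scale, and above 1 were 7.3%, against 3.74%. The members thus spread to both sides in leaf Epidermis. It was the highest leaf state for 16.6% of them, against 10.4% of all regions, and the lowest for 7.7%, against 13.9%.

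This leaf result leaned on which organs made the choice. Regions chosen without bud had 30.1% below 0 and a median of 0.29, and those chosen without early seedling had 63.4% and a median of -0.19. With epidermal states left out of the reference, the regions were chosen anew. Of these, 52% lay below 0 in leaf Epidermis and 11.6% below -1, against 57.0% and 2.56% of all regions.

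Other surface states of leaf were somewhat lower than its Epidermis. Bulliform, the large cells that let a grass leaf roll, had a median of -0.19, with 65.2% of members below 0 against 51.5% of all regions. Guard_cell, the pair of cells around a stomatal pore, had -0.23 and 69.7% against 49.1%. Leaf Mesophyll was lower than either, at -0.31 and 72.7% against 48%. The highest leaf state was Vascular_cell at 0.47, where 21.8% of members exceeded the leaf mean by more than 1, against 1.52% of all regions. Leaf Companion_cell followed at 0.27, but this column has 80 distinct values.

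The leaf Epidermis column also differed from the other Epidermis columns across the whole table. Over 128764 regions, which are not independent replicates, the difference from the organ mean correlated at a Pearson r of 0.55 to 0.75 among bud, early seedling and seedling Epidermis. The same r was 0.18, 0.04 and 0.04 between leaf Epidermis and these 3 columns. Panicle Epidermis_meristem reached 0.70, 0.43 and 0.52 with them. These are descriptions without a test, and the columns compared come from different libraries.

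The members lowest in leaf Epidermis were most open in Companion_cell or Vascular_cell of leaf. On chromosome 9 from 9208263 to 9208763, CPM was 0.243 in leaf Epidermis and 37.0 in leaf Companion_cell. On chromosome 2 from 10188991 to 10189491, it was 0.698 and 23.2 in the same states. On chromosome 5 from 800611 to 801111, it was 3.21 in leaf Epidermis and 27.4 in leaf Vascular_cell. Companion_cell was the highest leaf state in 9 of the 10 members lowest in leaf Epidermis, with Vascular_cell in the remaining member. Companion_cell was the highest leaf state for 29.6% of members and 22.8% of all regions, in a column of 80 distinct values. These 10 were picked for their deficit against the leaf mean, which includes Companion_cell. A high value there lowers the Epidermis difference, so their top leaf state follows in part from the choice. Without states under 100 distinct values, 0.8% of the regions then chosen lay below -1 in leaf Epidermis, against 0.457% of all regions. As reported it was 3.8%, against 0.666% of all regions.

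At the other end, some members had high values in leaf Epidermis. On chromosome 5 from 2005806 to 2006306, leaf Epidermis had a CPM of 15.6 against a leaf mean of 3.90, while bud, early seedling and seedling Epidermis had 2.26, 0.689 and 3.34. On chromosome 9 from 16862740 to 16863240, it had 26.6 against a leaf mean of 7.68, and the other Epidermis columns had 3.12, 1.21 and 3.17. On chromosome 1 from 39020052 to 39020552, it had 19.7 against 5.58, and the other Epidermis columns 3.23, 0.689 and 2.91. The 5 members highest in leaf Epidermis reached 15.6 to 26.6 CPM there. They were picked for their excess over the leaf mean, so that it was their top leaf state follows nearly from the choice.

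**Figure D3:**
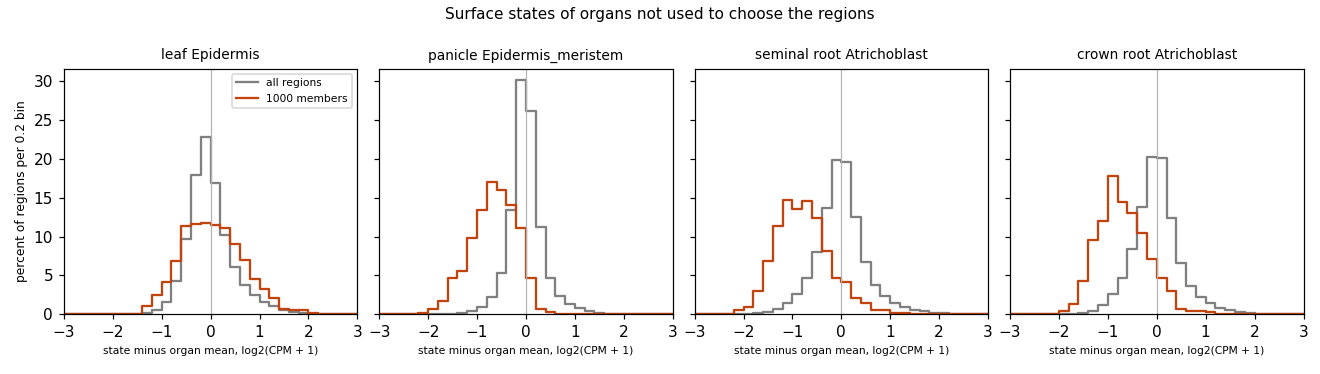
Percent of regions in bins of 0.2 of the state minus its organ mean, log2(CPM + 1) scale, for the 1000 members (red) and all regions of the table (grey) in 4 surface states that the choice did not use. The members centre near 0 in leaf Epidermis and are shifted to the left in panicle Epidermis_meristem and in Atrichoblast of both roots.

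In panicle, the branched flowering shoot, the members were low again in the epidermal state. Epidermis_meristem had a median CPM of 2.09 over the members, with an interquartile range of 1.33 to 3.35. It lay below the panicle mean in 94.3% of them (exact 95% interval 92.7 to 95.7), against 52.8% of all regions, with a median difference of -0.64. Below -1 were 22.7% of members, against 0.737% of all regions and 0.808% of those with a panicle mean of at least 1 on that scale. It was the lowest of the 16 panicle states for 253 members, or 25.3%, against 5.85% of all regions. Lodicule, the organ that swells to open the grass flower, had a median of -0.48.

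The 2 highest panicle medians were found in states that the labels abbreviate. SBM had a median difference of 0.99 and PBM 0.59, followed by the unnamed Panicle_UN4 at 0.49, SM at 0.46 and Rudimentary_glume at 0.45. More than 1 above the panicle mean were 49.2% of members in SBM, against 3.43% of all regions, and 24.6% in PBM, against 1.58%. As a whole the panicle was the organ with the lowest member levels, with a median over members of their mean over states of 4.69 CPM, near the 4.71 of all regions. The roots had the highest, 10.4 in seminal root and 10.3 in crown root against 5.00 in both over all regions.

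In both roots the epidermal state was low. Atrichoblast, the root epidermal cell that forms no hair, had a median difference of -0.82 in seminal root and -0.73 in crown root. It lay below the root mean in 90.8% of members in seminal root (exact 95% interval 88.8 to 92.5) and 90.4% in crown root (88.4 to 92.2), against 51.5% and 51.6% of all regions. Below -1 were 37.4% and 27.6%, against 2.61% and 1.89%. In CPM the member medians were 3.71 and 4.40 in Atrichoblast, below the root means of the members given above.

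Columella, the centre of the root cap, was as low as Atrichoblast. Its medians were -0.89 in seminal root and -0.86 in crown root, with 42.7% and 41.1% of members below -1, against 6.54% and 5.96% of all regions. Those columns have 74 and 80 distinct values. Exodermis, the layer just under the root epidermis, was much closer to the root mean, at -0.12 and -0.31. It lay below 0 in 56.4% and 67.6% of members against 54.4% of all regions in each root. In seminal root that is near the background, and for regions chosen without bud the share was 30.0% in seminal root and 47.9% in crown root.

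Low values were not limited to outer states. Cortex_meristem had medians of -0.47 in seminal root and -0.31 in crown root, and QC, a label not spelled out, had -0.56 and -0.33. These were lower than Exodermis in seminal root and close to it in crown root.

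The members' highest root values lay in inner states. Procambial_meristem had medians of 0.71 in seminal root and 0.61 in crown root, and Pericycle had 0.71 and 0.61. More than 1 above the root mean were 35.2% and 34.4% of members in Procambial_meristem, against 3.39% and 3.9% of all regions. For Pericycle the shares were 31.2% and 26.0%, against 3.67% and 3.07%. In the 2 root types, which come from separate libraries, the medians of Atrichoblast, Columella, Exodermis, Procambial_meristem and Pericycle had the same sign.

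Most members lay below the organ mean in the panicle and root surface states together. Of the 1000, 840 lay below the organ mean in panicle Epidermis_meristem and in both Atrichoblast columns, against 22.4% of all regions. The single columns had 94.3%, 90.8% and 90.4% of members below 0, so most of this joint share follows from them. Below -1 in all 3 columns were 65 members, or 6.5%, against 0.0823% of all regions. Singly, 22.7%, 37.4% and 27.6% of members were below -1, so most of these were not below -1 in all 3 columns. With leaf Epidermis required to be below 0 as well, 442 members remained, against 13.5% of all regions.

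The members were also counted among the lowest 1000 regions of surface states and of further layers of root and seed. Members made up 23.8% of the 1000 lowest in panicle Epidermis_meristem, 19.1% of those lowest over both Atrichoblast columns and 12.8% over both Columella columns. They made up 6.5% over both Aleurone columns, 4.8% over both Exodermis columns, 4% in leaf Epidermis and 1.7% over both Nucellar_epidermis columns. This order is not that of the medians, which were lower in Columella than in panicle Epidermis_meristem. Members are 0.777% of the table. All these lists have 1000 regions, so each share holds for either list.

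Individual members show how far the roots could go either way. On chromosome 6 from 28174758 to 28175258, the member lowest over Atrichoblast and Exodermis, CPM was 0.716 and 1.85 in the Atrichoblast columns of seminal and crown root. It was 2.22 and 1.55 in their Exodermis columns, with root means of 10.4 and 10.0, and its highest value in the atlas was 34.2 in Companion_cell of bud. This member was low at the surface of both roots and in the shoot Epidermis columns of the choice.

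The opposite case lies on chromosome 4 from 33685851 to 33686351. It had 19.2 and 24.5 CPM in the Atrichoblast columns, 23.4 and 18.7 in Exodermis, and root means of 12.2 and 13.7. In the Epidermis columns of bud, early seedling and seedling it had 1.20, 0.463 and 1.80, with organ means of 1.67, 7.32 and 6.52. Bud was low as a whole in this member, with a bud Epidermis difference of -0.21. Leaf Epidermis had 16.2. A further member, on chromosome 1 from 1081695 to 1082195, peaked in Atrichoblast of seminal root at 28.2, its highest value in the atlas, and had 0.723, 0.689 and 0.627 in the 3 shoot Epidermis columns, with organ means of 1.83, 3.65 and 4.14.

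Seed tissues gave a mixed picture by layer. Aleurone, the outer cell layer of the endosperm, had a median difference of -0.67 in early seed and -0.63 in late seed, with 87.9% and 86.3% of members below 0, against 48.9% and 50.3% of all regions. Nucellar_epidermis, a maternal layer of the seed, had -0.12 and 0.22, with 56.9% and 38.1% below 0 against 57.9% and 55%. Its members were thus at the background in early seed and less often below 0 than all regions in late seed.

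In the embryo, shoot and root ends differed. Shoot_meristem had medians of -0.61 in early seed and -0.35 in late seed, with 90.1% and 69.5% of members below 0, against 53.2% and 51.1%. Radicle_meristem, at the tip of the embryonic root, had the highest medians of both stages at 0.67 each, with 33.3% and 33.4% of members above 1, against 2.9% and 3.9% of all regions. Radicle_meristem was the highest state for 371 members in early seed and 333 in late seed, against 7.01% and 7.78% of all regions.

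The members were also grouped by the shoot state in which they were highest. Besides Epidermis, 8 labels occur in bud, early seedling and seedling, and each member was assigned to the label with its highest mean difference over the 3 organs. Companion_cell took 339 members, Developing_phloem 323, Xylem_parenchyma 174, Procambial_meristem 75, Mesophyll 39, Bundle_sheath 31 and Vascular_cell 19, and Stomatal_precursor took 0. Over all regions of the table the same assignment gave Companion_cell 16.7%, Developing_phloem 16.2%, Xylem_parenchyma 15.5% and Stomatal_precursor 19.6%. It gave Procambial_meristem 12.3%, Mesophyll 9.59%, Bundle_sheath 7.63% and Vascular_cell 2.41%, above the members' shares of 7.5%, 3.9%, 3.1% and 1.9%. The phloem columns behind these labels have 76 to 364 distinct values. The Xylem_parenchyma columns have 51 to 477 and the Procambial_meristem columns 69 to 409. The assignment uses the organs of the choice, which left little room for Stomatal_precursor. It serves as a description and would split any set of regions.

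**Figure D4:**
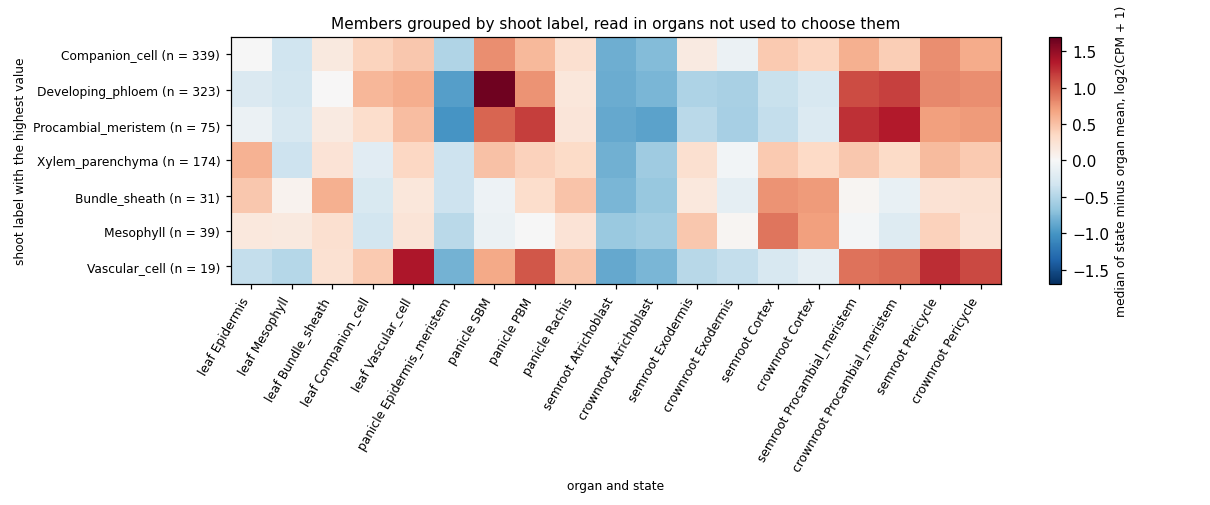
Median of each state minus its organ mean, log2(CPM + 1) scale, for the members grouped by the shoot label in which they were highest (rows, with the number of members), in states of leaf, panicle and root (columns). Atrichoblast and panicle Epidermis_meristem are below 0 in every group, whereas leaf Epidermis runs from -0.41 to 0.59.

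Read in leaf, the groups split. All regions given the same labels were not read in leaf, panicle or root. Whether the split is particular to the members was therefore not tested. Leaf Epidermis had a median of 0.59 in the Xylem_parenchyma group, with 15.5% of it below 0, and 0.46 in the Bundle_sheath group. In the Developing_phloem group it had -0.24, with 67.2% below 0, and in the Companion_cell group 51.0% were below 0. Of all regions, 56.9% lay below 0 in leaf Epidermis. Leaf Companion_cell was 0.56 in the Developing_phloem group and -0.19 in the Xylem_parenchyma group. The near-zero leaf Epidermis median over all members was therefore made of groups on both sides of 0.

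In panicle and root the epidermal states were low in each group, but by different amounts. Panicle Epidermis_meristem had medians of -1.01 in the Procambial_meristem group, -0.94 in the Developing_phloem group, -0.51 in the Companion_cell group and -0.35 in the Xylem_parenchyma group. Atrichoblast of seminal root ranged over the 7 groups from -0.88 to -0.63 and that of crown root from -0.91 to -0.58. Exodermis of seminal root was -0.53 in the Developing_phloem group and 0.28 in the Xylem_parenchyma group, and leaf Epidermis placed these 2 groups in the same order.

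Inner states also differed between the groups. SBM of panicle had a median of 1.66 in the Developing_phloem group and 0.49 in the Xylem_parenchyma group. In the Developing_phloem group 89.5% exceeded the panicle mean by more than 1, against 3.43% of all regions. Root Procambial_meristem had 1.24 in seminal root and 1.35 in crown root in the group of the same name, and 0.46 and 0.32 in the Xylem_parenchyma group. Cortex, the ground tissue between root epidermis and vascular core, had 0.45 and 0.34 in the Xylem_parenchyma group and -0.38 and -0.28 in the Developing_phloem group. In root Procambial_meristem, which the grouping did not use, the Procambial_meristem and Developing_phloem groups had the highest medians of the 7, the latter with 1.11 in seminal root and 1.16 in crown root.

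The members were open in about as many states as other regions. A CPM of at least 1 was reached in a median of 126 of 128 states, with an interquartile range of 118 to 128, and all regions had the same median with a range of 112 to 128. The minimum over members was 69 states. That CPM was reached in every state by 321 members (32.1%), against 42.2% of all regions. The member open in the fewest states, on chromosome 5 from 18463186 to 18463686, had 1.04, 0.291 and 0.760 CPM in the 3 Epidermis columns and 32.1 in Developing_xylem of bud. A member open in every state, on chromosome 12 from 9329629 to 9330129, had 2.72, 2.09 and 3.28 in them and 38.5 in Developing_metaxylem of seminal root.

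The authors' own list mostly calls the members broadly accessible. Of the 988 members found in it, 943 (95.4%, exact 95% interval 94.0 to 96.7) had that mark, against 64.5% of the table regions in the list. The 45 members listed as specific to cell states named Procambial_meristem of seminal root most often (30 members), then Pericycle (21) and Developing_metaxylem (20) of seminal root. How often the list names these states over all its specific regions was not counted, so these counts show no excess. None of the 45 named Epidermis of bud, early seedling, seedling or leaf. For all of these but leaf, the choice of regions low in those columns left little room for it. The list derives from the same nuclei. The excess of broadly accessible members also depended on the scale, since members chosen on the log2 values as deposited gave 68.2%, near the share of the table.

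Along the genome the members were spread over all 12 chromosomes, from 0.607% of the regions of chromosome 11 to 0.985% of those of chromosome 3. They were often neighbours. For 174 members (17.4%) the next region of the table on either side was also a member, against 1.50% of all regions that lie next to a member. With members joined across gaps of up to 20000 bases, 561 stood alone and 439 fell into 179 clusters of 2 to 6. Neighbouring regions are not independent, so this count carries no test.

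The clusters with the most members were picked after their values were seen. On chromosome 4, between 28533908 and 28544637, 6 of 9 regions were members, among them the second lowest member described above. Their median difference was -1.20 in panicle Epidermis_meristem, -1.42 and -1.23 in Atrichoblast of seminal and crown root and -0.91 in leaf Epidermis. On chromosome 7, between 23853241 and 23877312, 6 of 18 regions were members, with medians of -1.12, -1.22, -1.06 and -0.48 in the same states. On chromosome 12, between 3016633 and 3039119, 6 of 19 were members, with -0.83, -1.004, -1.09 and 0.15. All 18 of these members lay below 0 in panicle Epidermis_meristem, and 13 did in leaf Epidermis.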

How the data were processed

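Single-cell ATAC-seq libraries were made with a 10x Genomics kit from nuclei sorted by FANS, per the labels' protocols; BWA and MACS2 are named, without versions or settings, per the submitters' processing notes. The deposited table is named by the authors for CPM, and its values were read as log2 CPM from their range and sums. They run from -3.24 to 6.21, and 2 raised to the values sums to 1007548 to 1008613 per column. Column medians over all regions run from 4.02 to 4.91 CPM, so columns appear to have been brought to nearly 1 distribution. Low values then no longer give whole reads. The column names give organ and state but no library, so libraries were taken as pooled by the authors. The columns therefore have no replicates, and no test was run; the planned analysis assumed CPM, and the values were converted. How reads were shifted for transposase insertion, doublets treated and nuclei clustered, and on which genome build, is not stated in the labels or files. Coordinates are as in the files, counted from 1.

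Values were raised from log2 to CPM, a pseudocount of 1 was added and log2 taken again (Python 3.11.15, pandas 2.3.3, numpy 2.4.6), which understates differences of low regions. Binomial intervals (SciPy 1.17.1) cover counting error only. They take regions as independent, which neighbouring members are not, so they are too narrow. A count below -1 or above 1 is set beside the share of all regions that passes it. The second file, in which the authors deposited names of states and no score, was joined by coordinates. The number of columns with no organ was 0. The steps were tested on simulated data. Named regions are the first in rank by the lowest mean, the lowest and highest leaf Epidermis and outer root differences, the number of open states and the distance from the limit. Members, groups and lists were chosen with earlier results of these data known.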

Additional observations from a re-analysis of the deposited data

Results flagged for a closer look

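Epidermal states of leaf and panicle, neither used in the choice, stood apart. The median difference from the organ mean over the members was 0.0080 in leaf Epidermis and -0.64 in panicle Epidermis_meristem. The leaf value is close to 0 and shows no direction, each organ has 1 column, and the difference was not tested. Leaf Epidermis has 420 distinct values and panicle Epidermis_meristem 1041, and the part of depth was not tested.

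Nucellar_epidermis had medians of opposite sign in the seed stages, at -0.12 in early seed and 0.22 in late seed. In early seed 56.9% of members lay below 0, against 57.9% of all regions, so the members showed no direction there. In late seed it was 38.1%, against 55%. These columns have 879 and 235 distinct values, and the difference was not tested.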

How the results depend on the processing

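Under 12 alternatives for 18 results, 188 of 205 values stayed within 1.5 times the reported value without changing side. That limit is loose for shares that are already high, which cannot rise by as much. The broadly accessible share still counted as within it at 68.2% on the deposited log2 values. It was 95.4% as reported and 64.5% over the table. In 1 of the 12 alternatives, a leaf filter on the regions, all 18 values equalled those reported. These values are among the 188 and were no test of the results. Leaf Epidermis below 0 was near an even split as reported and is an exception on side, since it ran from 30.1% to 63.4%. Its values past the even split were still counted among the 188. The share of members below 0 stayed between 81% and 98.3% in panicle Epidermis_meristem and between 86.4% and 93% in both Atrichoblast columns. The share of members below -1 in leaf Epidermis was 3.8% as reported, against 0.666% of all regions. Regions were chosen anew under each setting that follows, and the share of all regions, in brackets, moved as well. It was 10.3% with a pseudocount of 0.1 (4.24%), 0% with a pseudocount of 5 (0.0023%) and 11.2% on the log2 values as deposited (5.12%). With the organ median as reference it was 1.9% (0.704%), and with epidermal states left out of the reference 11.6% (2.56%). For regions chosen without bud it was 1.8% (0.666%), and without states under 100 distinct values 0.8% (0.457%). Below 0 in leaf Epidermis were 30.1% of regions chosen without bud. For panicle Epidermis_meristem below -1, the value was 3.2% with a pseudocount of 5 (all regions 0.0458%) and 35.5% on the deposited log2 values (2.81%). It was 14.4% with the organ median (0.618%) and 8.6% for regions chosen without bud (0.737%). A pseudocount of 5 gave 7.6% below -1 in Atrichoblast of seminal root and 4% in crown root, as a larger pseudocount shrinks all differences. Exodermis changed side, with 49.6% below 0 in seminal root on the deposited values and, for regions chosen without bud, 30.0% in seminal root and 47.9% in crown root. The cause was not tested. Alternatives for panicle and the left-out organs, the removal of shallow states, the root and seed values for regions chosen without an organ, and the authors' list on the deposited log2 values were among those chosen after seeing the data. Distance to genes and sequence features were planned and not run. No paired analysis was possible because the columns carry no replicate number. Columns of few distinct values limit precision.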

Other observations

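Several states without a cell type name were also low in the members. Panicle_UN2 had a median difference from the panicle mean of -0.61, with 92.6% of members below 0 against 50.3% of all regions, and across all regions its Pearson r with the mean of the 3 shoot Epidermis columns was 0.54, next to 0.61 for panicle Epidermis_meristem. Seedling_UN1 had -0.60 and 94.6% below 0 against 48.7%, in an organ that the choice used. Late_seed_UN1 had -0.45.

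Developing_fiber, a named state, stood apart from the vascular states in seedling at -0.75, with 88.5% of members below 0 against 53.4% of all regions, whereas it was -0.25 in early seedling.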
